A study of Rattus norvegicus with 10 samples.

Results

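Genes for prostaglandin synthases and prostaglandin receptors were followed in the supraoptic nucleus of Wistar Han rats after water deprivation. The 10 genes were found by symbol among 32402 genes listed: the cyclooxygenases Ptgs1 and Ptgs2, the prostaglandin E synthases Ptges, Ptges2 and Ptges3, the prostaglandin D synthase Ptgds, the prostaglandin E receptors Ptger1, Ptger3 and Ptger4, and the inactivating enzyme Hpgd. The set was chosen by the higher Ptges values of dehydrated rats in these data, so the values of Ptges are given as a description with no test. All 10 genes passed the filter on low counts, which left 15311 genes. Polyadenylated RNA was sequenced from 5 dehydrated samples, from rats without drinking water for 72 h, and from 5 euhydrated samples, from rats with free access to water. Rats of both groups were of the same strain, and water was given or withheld by cage. No cage is tied to a library here, so differences between cages cannot be told apart from those of water deprivation. Each sample came from 1 mm punches of both nuclei over 12 coronal slices, and such punches hold glia, vessels and surface tissue as well as neurones. Nothing in the labels says whether every sample is a different animal, and the tests therefore gauge variation among samples, some of which may be technical.

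Prostaglandins are short-lived lipid signals made from arachidonic acid, which phospholipases free from membranes. Cyclooxygenases turn it into prostaglandin H2, and terminal synthases turn that into the separate prostaglandins, of which prostaglandin E2 acts through the EP receptors. Ptges encodes the inducible microsomal prostaglandin E synthase, best known in the brain from vessels and perivascular cells during fever, and prostaglandin E2 has been studied as an excitatory signal to the vasopressin and oxytocin neurones of this nucleus.

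The libraries held 24268398 to 28491926 counts, and 1 count corresponded to 0.0349 to 0.0421 CPM (counts scaled to a common library size by TMM, which corrects for differences in RNA composition). The tissue label was matched by high levels of the magnocellular markers, 6 of 6 measured. Their summed level was 10567 to 14248 CPM in dehydrated and 7702 to 10967 CPM in euhydrated libraries, most of it from Avp and Oxt. None of the 6 passed an edgeR adjusted p of 0.05 between the groups (median log2 fold change 0.08). Of all genes tested, 12.7% passed an edgeR adjusted p of 0.05, 7.79% higher and 4.90% lower in dehydrated libraries. In 10.9% of the genes tested the CPM of the groups did not overlap, 6.90% higher and 3.97% lower. In bulk tissue, fewer cells of a type and less RNA per cell cannot be told apart.

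Ptges was the member that stood furthest apart. Its level was 10.3, 8.80, 13.9, 12.3 and 11.3 CPM in dehydrated libraries 1 to 5, against 3.07, 3.11, 3.94, 2.21 and 3.19 CPM in euhydrated libraries 1 to 5. Every dehydrated library was above every euhydrated library, and the lowest dehydrated value was more than double the highest euhydrated one. These values came from 226 to 376 counts per dehydrated library and 58 to 113 counts per euhydrated library. The means were 11.3 ± 1.93 CPM in dehydrated and 3.10 ± 0.615 CPM in euhydrated libraries (SD, n = 5 per group), a log2 fold change of 1.86 ± 0.14 (SE) or 3.63-fold, the 18th highest of the 15311. Its log2 fold change stayed between 1.64 and 2.03 over the 22 alternative fits.

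The sequence before the start of Ptges is shown because this gene chose the set, and that of Ptgs2 because it encodes the inducible enzyme of the step before. Both are RefSeq sequences of the build GRCr8, 250 bases before to 50 after the start site, with matches of 4 motifs in capitals. Ptges lies at chr3:34586938-34587237 on the minus strand, and Ptgs2 at chr13:64713813-64714112 on the plus strand.
Ptges: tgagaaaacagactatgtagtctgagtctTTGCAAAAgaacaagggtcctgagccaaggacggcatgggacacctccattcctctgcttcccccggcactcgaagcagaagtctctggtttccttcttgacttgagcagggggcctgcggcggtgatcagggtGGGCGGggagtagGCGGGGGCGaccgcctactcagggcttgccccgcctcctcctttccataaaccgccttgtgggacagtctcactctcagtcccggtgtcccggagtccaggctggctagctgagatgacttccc
Ptgs2: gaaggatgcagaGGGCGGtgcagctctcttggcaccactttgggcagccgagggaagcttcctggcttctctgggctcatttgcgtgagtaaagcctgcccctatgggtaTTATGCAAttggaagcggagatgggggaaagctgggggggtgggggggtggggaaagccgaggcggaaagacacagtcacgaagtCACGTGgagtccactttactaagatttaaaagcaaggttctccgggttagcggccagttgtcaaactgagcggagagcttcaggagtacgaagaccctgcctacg
Both strands were searched for an EGR motif (GCGGGGGCG), a GC box (GGGCGG), a C/EBP motif (TTGCNNAA) and an E box (CACGTG). The Ptges window held 1 EGR match, 1 GC box and 1 C/EBP match, of which the EGR match began 74 bases before the start site. The Ptgs2 window held 1 GC box, 1 C/EBP match on the opposite strand and 1 E box. Among 33465 such windows of the rat genome, 2.73% held the EGR motif, 33.1% the GC box, 10.6% the C/EBP motif and 6.42% the E box. A looser pattern of the NF-kB type (3 G, any 5 bases, 2 C), which overlaps the EGR match in the Ptges window, was in both windows and in 47.3% of all. Exact matches of an AP-1 motif (TGANTCA), a CRE (TGACGTCA) and a TATA box (TATAAA) were in neither window, against 7.33%, 1.83% and 14.2% of all. Variant forms of these motifs were not searched, so either window may still hold such elements. Windows of other members were also searched and are not shown, and that of Ptger4 held none of these motifs. The window of Ptger4 was not at the gene start given for it. A match describes letters and is not evidence of binding.

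**Figure D1:**
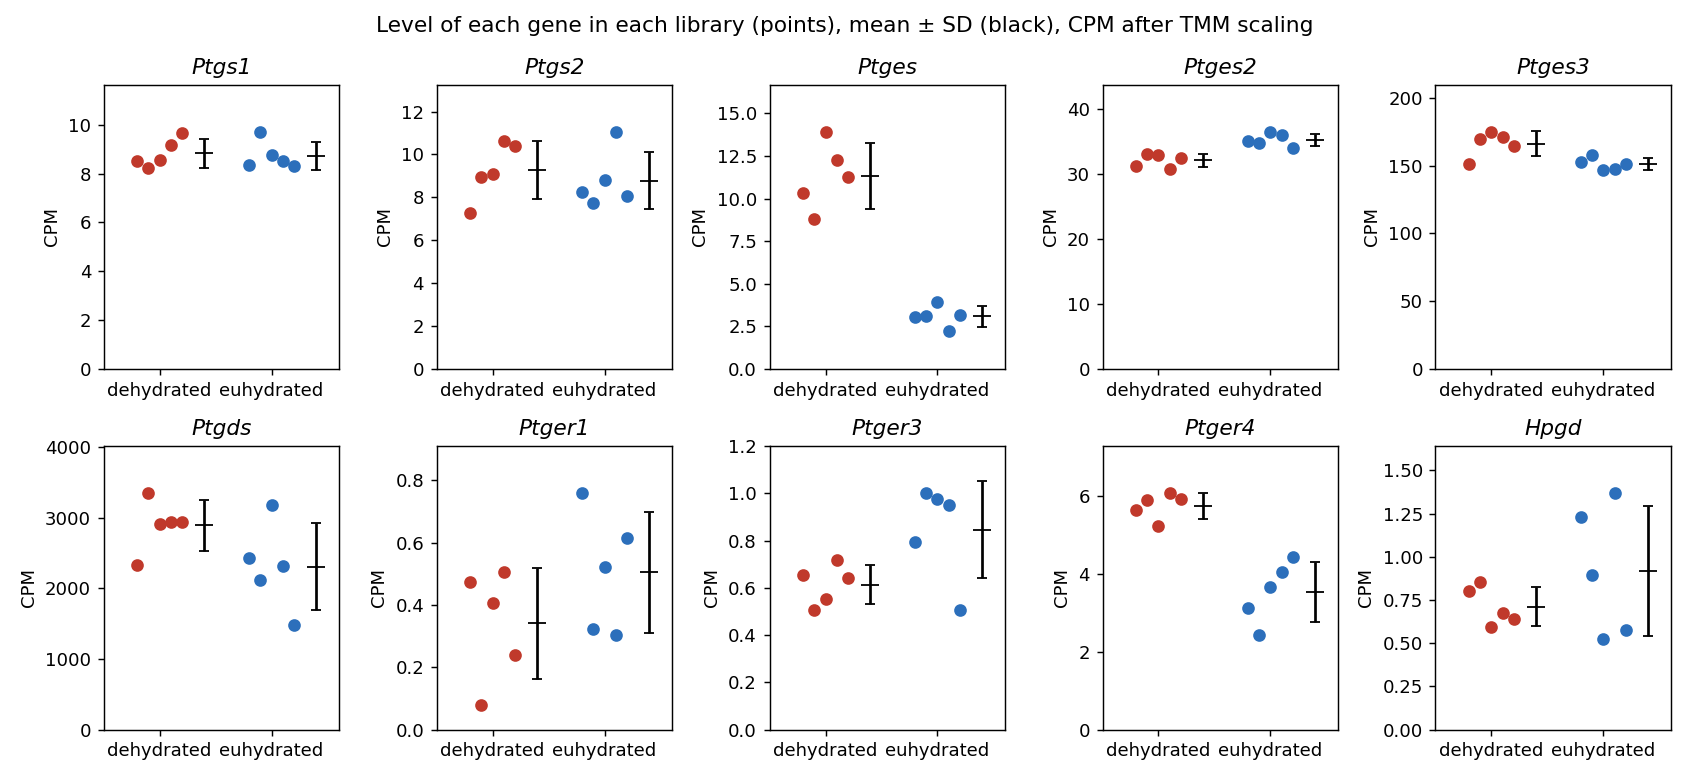
Level of the 10 genes in each library, in CPM after TMM scaling (vertical axes from 0, a separate scale for each gene); points are libraries in the order of their numbers, red dehydrated and blue euhydrated, and black bars are mean ± SD, n = 5. Ptges and Ptger4 lie higher in all 5 dehydrated libraries than in any euhydrated one, and Ptges2 lies lower.

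The cyclooxygenase transcripts did not pass the test. Ptgs1, the constitutive cyclooxygenase found in microglia among other cells, was at 8.52, 8.21, 8.57, 9.19 and 9.68 CPM in dehydrated libraries and 8.35, 9.70, 8.75, 8.52 and 8.30 CPM in euhydrated libraries. The groups overlapped almost fully, and the fold was 1.01 with a 95% interval of 0.905 to 1.13 (edgeR adjusted p = 0.919). Ptgs2, the inducible cyclooxygenase, which forebrain neurones also make at rest, was at 7.28, 8.95, 9.09, 10.6 and 10.4 CPM in dehydrated libraries and 8.24, 7.73, 8.82, 11.0 and 8.08 CPM in euhydrated libraries. Here the highest value was a euhydrated library and the lowest a dehydrated one, and the fold was 1.05 with a 95% interval of 0.891 to 1.25 (edgeR adjusted p = 0.728).

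Of the 9 members other than Ptges, 2 rose, 1 fell and 6 did not pass, with a median log2 fold change of 0.02 against -0.01 over all genes tested. Because the same comparison chose the set, nothing is read from that count beside the 12.7% of all genes (7.79% higher, 4.90% lower). The groups did not overlap in 3 of all 10 members, Ptges and Ptger4 higher and Ptges2 lower, against 10.9% of all genes (6.90% higher, 3.97% lower), and nothing is read from that either.

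The other prostaglandin E synthases differed little. Ptges2, a membrane-associated enzyme that is present without induction, was at 31.3, 33.1, 32.9, 30.8 and 32.5 CPM in dehydrated libraries and 35.2, 34.9, 36.4, 36.0 and 33.9 CPM in euhydrated libraries. The groups did not overlap but the gap was narrow, and the level was 1.10-fold lower (log2 fold change -0.14 ± 0.04, SE; edgeR adjusted p = 0.0384). Ptges3, better known as the Hsp90 co-chaperone p23, was at 151, 170, 175, 171 and 165 CPM in dehydrated libraries and 153, 158, 146, 148 and 151 CPM in euhydrated libraries. Dehydrated library 1 lay among the euhydrated libraries and the other 4 lay above them, a rise of 1.10-fold (log2 fold change 0.14 ± 0.04, SE; edgeR adjusted p = 0.0248).

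The calls of these synthase genes lay close to the threshold. Without 1 library the log2 fold change stayed at -0.15 to -0.12 for Ptges2 and at 0.12 to 0.17 for Ptges3. The call of Ptges2 was lost without any of dehydrated 1, 3, 4 or 5 or euhydrated 1, 2, 3 or 4 (adjusted p of 0.0524 to 0.0946). It held in 8 of 22 alternative fits (0.0204 to 0.396). The call of Ptges3 was lost without dehydrated 2, 3 or 4 or euhydrated 3 or 4 (0.0532 to 0.0684) and held in 12 of 22 (0.00337 to 0.293). The gene descriptions of Ptges3l1 and Ptges3l also contain the words prostaglandin E synthase 3. Whether the counting split reads among these genes and Ptges3 was not tested. Ptges3l1 held 7.88% as many counts as Ptges3 (log2 fold change -0.04, edgeR adjusted p = 0.780) and Ptges3l 2.22% (log2 fold change 0.02, edgeR adjusted p = 0.932).

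Ptgds, for the lipocalin-type prostaglandin D synthase that leptomeninges and oligodendrocytes make in large amounts, was abundant and variable. It was at 2338, 3352, 2906, 2941 and 2935 CPM in dehydrated libraries and 2425, 2118, 3189, 2321 and 1476 CPM in euhydrated libraries. The euhydrated libraries spanned more than a doubling and enclosed 4 of the 5 dehydrated ones. The log2 fold change of 0.33 ± 0.19 (SE) did not pass (edgeR adjusted p = 0.327; 95% interval of the fold 0.926 to 1.70). Leptomeningeal markers, of which 9 of 10 were tested with none past the threshold and Col1a2 at 0 in every library, summed to 1029 to 1255 CPM in dehydrated and 1006 to 1222 CPM in euhydrated libraries. Over the 10 libraries, deviations of Ptgds from its group means went with those of the mean leptomeningeal marker level (Pearson r = 0.60, a description over libraries that share the dissection). With that level as a covariate the log2 fold change of Ptgds was 0.10 ± 0.19 (SE; edgeR adjusted p = 0.825), against 0.33 without it. Endothelial markers went the other way: deviations of Ptgds had an r of -0.67 with theirs, and with their level as a covariate its log2 fold change was 0.68 ± 0.21 (SE; adjusted p = 0.120 by edgeR). With oligodendrocyte markers the r of Ptgds was -0.33, and their level was not used as a covariate. The part of any of these cell types in the Ptgds values was not tested.

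Among the receptors, Ptger4 rose. Ptger4 encodes EP4, which raises cyclic AMP, and its level was 5.64, 5.88, 5.21, 6.07 and 5.92 CPM in dehydrated libraries against 3.11, 2.43, 3.66, 4.03 and 4.42 CPM in euhydrated libraries. All dehydrated libraries were above all euhydrated ones and lay closer together, with means of 5.74 ± 0.335 and 3.53 ± 0.782 CPM (SD, n = 5 per group). The rise was 1.63-fold (log2 fold change 0.70 ± 0.14, SE; 95% interval of the fold 1.33 to 1.98; edgeR adjusted p = 0.00275). The call held without any single library and in 21 of 22 alternative fits, with adjusted p from 4.43e-05 to 0.186. The exception had perivascular macrophage markers as a covariate and is described with those markers.

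Ptger1 and Ptger3 were near the limit of what these libraries could count. Ptger1, for the calcium-mobilising EP1 receptor, had 13, 2, 11, 12 and 6 counts in dehydrated libraries and 21, 9, 15, 8 and 17 counts in euhydrated libraries. The groups overlapped, and its log2 fold change of -0.56 ± 0.40 (SE) had a 95% interval of the fold from 0.378 to 1.21 (edgeR adjusted p = 0.399). Ptger3, for EP3, which lowers cyclic AMP and mediates fever in the preoptic area, had 18, 13, 15, 17 and 16 counts in dehydrated libraries and 22, 28, 28, 25 and 14 counts in euhydrated libraries. Euhydrated library 5 lay within the dehydrated range and the other 4 above it, and the log2 fold change of -0.46 ± 0.24 (SE) did not pass (edgeR adjusted p = 0.228; 95% interval of the fold 0.513 to 1.03). Ptger2, for EP2, the remaining EP receptor, was named after its values were seen, and it averaged 2.41 ± 0.414 CPM in dehydrated and 1.99 ± 0.190 CPM in euhydrated libraries (log2 fold change 0.28 ± 0.15, SE; edgeR adjusted p = 0.252).

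Hpgd, for the dehydrogenase that starts prostaglandin breakdown, was also low. It had 22, 22, 16, 16 and 16 counts in dehydrated libraries and 34, 25, 15, 36 and 16 counts in euhydrated libraries. The euhydrated libraries enclosed all the dehydrated ones, and a fold between 0.517 and 1.18 was within the 95% interval (log2 fold change -0.36 ± 0.28, SE; edgeR adjusted p = 0.456).

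**Figure D2:**
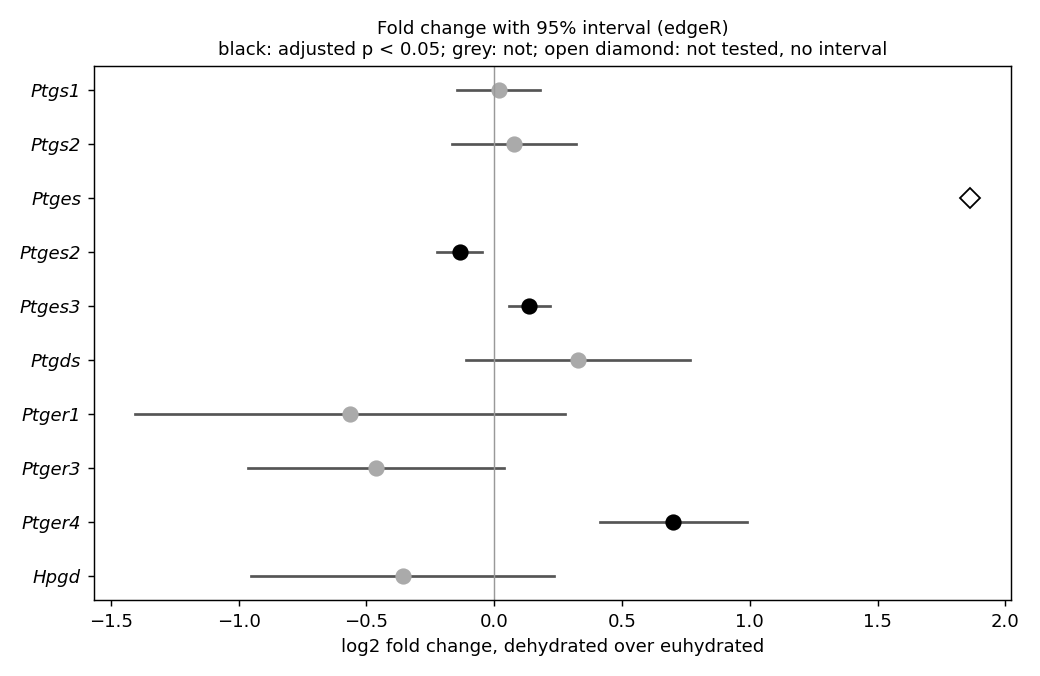
Log2 fold change of each gene, dehydrated over euhydrated (horizontal axis), with its 95% interval from edgeR; black points passed an adjusted p of 0.05, grey points did not, and the open diamond is Ptges, not tested. Ptges stands at 1.86 and Ptger4 at 0.70, while the intervals of Ptgs1 and Ptgs2 include 0, as do the wider ones of Ptgds, Ptger1, Ptger3 and Hpgd.

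Genes around these in the pathway were followed in 8 lists with 73 genes, of which 72 were matched and 64 tested. In all, 8 rose, 1 fell and 55 did not pass (14.1% past the threshold, against 12.7% of all genes), with a median log2 fold change of 0.03. The lists were chosen with earlier results of these data known.

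Of 11 tested genes of phospholipases and arachidonate release 1 rose, 0 fell and 10 did not pass, 9.09% past the threshold against 12.7% of all genes (median log2 fold change -0.03). That gene, Plaa, for a ubiquitin-binding protein first described as an activator of phospholipase A2, rose 1.13-fold, with 68.9 ± 3.06 CPM in dehydrated and 61.3 ± 3.91 CPM in euhydrated libraries (edgeR adjusted p = 0.0243). Dehydrated library 2, at 64.9 CPM, lay below euhydrated library 5, at 67.9 CPM. Its call was lost without dehydrated 1, 3 or 5 or euhydrated 1, 2 or 3 (adjusted p of 0.0508 to 0.0700) and held in 11 of 22 alternative fits (0.00363 to 0.297).

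None of the 5 other prostanoid synthase genes tested passed (median log2 fold change -0.02). The most abundant were Akr1b1, an aldo-keto reductase that can make prostaglandin F, with a log2 fold change of 0.08 ± 0.05, and Prxl2b, the prostamide and prostaglandin F synthase, with -0.13 ± 0.06 (SE; edgeR adjusted p = 0.309 and 0.192). None of the 7 genes of transport and breakdown passed (median 0.03). Ptgr2, a prostaglandin reductase, and Slco3a1, an organic anion carrier, were the most abundant, at 0.04 ± 0.05 and -0.05 ± 0.06 on the log2 scale (SE; adjusted p = 0.662 and 0.688 by edgeR). None of the 5 relatives of Ptges in its enzyme family, MAPEG, passed (median -0.07). The most abundant of those, Mgst3 and Mgst1, both microsomal glutathione transferases, stood at -0.16 ± 0.07 and -0.16 ± 0.09 on the log2 scale (SE; adjusted p = 0.187 and 0.280 by edgeR).

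Of 6 tested genes in the list of other prostanoid receptors, 1 rose, 0 fell and 5 did not pass. That was 16.7% past the threshold against 12.7% of all genes (median log2 fold change 0.11). These genes include Ptgfrn, whose product is a regulator of the prostaglandin F receptor and not itself a prostanoid receptor. Ptgir, for the prostacyclin receptor, which like EP4 raises cyclic AMP, was at 0.910, 1.05, 0.850, 1.10 and 1.12 CPM in dehydrated libraries and 0.506, 0.751, 0.384, 0.457 and 0.761 CPM in euhydrated libraries. The groups did not overlap, but all values were low, and the rise was 1.75-fold (log2 fold change 0.81 ± 0.23, SE; edgeR adjusted p = 0.0335). The call was lost without dehydrated 2, 4 or 5 or euhydrated 1, 3 or 4 (0.0651 to 0.0800) and held in 11 of 22 alternative fits (0.0262 to 0.463). The list of the lipoxygenase and leukotriene route, which shares arachidonic acid with the prostaglandins, also held Ephx2, an epoxide hydrolase outside that route. Of the 7 tested genes in this list 0 rose, 1 fell and 6 did not pass. That was 14.3% past the threshold against 12.7% of all genes (median -0.08, the value of Ephx2). Lta4h, for the hydrolase that makes leukotriene B4, averaged 37.5 ± 1.12 CPM in dehydrated and 41.3 ± 1.30 CPM in euhydrated libraries, 1.10-fold lower with no overlap (edgeR adjusted p = 0.0283). Its call was lost without dehydrated 1, 3, 4 or 5 or euhydrated 4 or 5 (0.0504 to 0.0815) and held in 11 of 22 alternative fits (0.0166 to 0.399).

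Of 15 tested genes known to induce or restrain Ptgs2 and Ptges, 4 rose, 0 fell and 11 did not pass, 26.7% past the threshold against 12.7% of all genes (median log2 fold change 0.15, against -0.01). The list was put together with results of these data known, so nothing particular to it is read from that share. Zfp36, for an RNA-binding protein that speeds the decay of inflammatory transcripts, rose 1.39-fold, with 16.6 ± 2.15 CPM in dehydrated and 12.0 ± 0.681 CPM in euhydrated libraries and no overlap (edgeR adjusted p = 0.00158). Cebpb, for a C/EBP transcription factor, rose 1.45-fold, with 4.42 ± 0.436 CPM in dehydrated and 3.06 ± 0.242 CPM in euhydrated libraries and no overlap (edgeR adjusted p = 0.00461). Both calls held without any single library and were lost in 2 of 22 alternative fits each, up to an adjusted p of 0.170 for Zfp36 and 0.0968 for Cebpb.

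Dusp1 and Cebpd were less stable. Dusp1, for a phosphatase that switches off MAP kinases, was at 24.6, 30.8, 42.9, 19.3 and 19.4 CPM in dehydrated libraries and 14.5, 16.6, 12.6, 16.4 and 15.7 CPM in euhydrated libraries. The groups did not overlap and dehydrated library 3 was the highest (1.81-fold, edgeR adjusted p = 0.0438). Its call was lost without dehydrated 1 or 2 or any euhydrated library (0.0668 to 0.0963), and over all alternatives its adjusted p ran from 0.00347 to 0.304. Cebpd, for a second C/EBP factor, rose 1.33-fold with overlapping groups (edgeR adjusted p = 0.0484), and the call was lost without any library other than dehydrated 5 or euhydrated 2 (0.0593 to 0.132), and the 22 alternatives spanned 0.0202 to 0.488.

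The cytokine genes themselves were scarce, and those named here were chosen after their values were seen. Tnf had no count in any library. The floor of 3 counts stood at 0.109 to 0.126 CPM in dehydrated and 0.105 to 0.114 CPM in euhydrated libraries, for counting error only. Il6 was at 0 to 0.126 CPM in dehydrated and 0 to 0.0761 CPM in euhydrated libraries, and Il1b at 0.328 to 0.480 CPM and 0.217 to 0.697 CPM (Il1b edgeR adjusted p = 0.897). Egr1, whose product binds the EGR motif, averaged 60.9 ± 15.9 CPM in dehydrated and 45.8 ± 16.4 CPM in euhydrated libraries and did not pass (log2 fold change 0.42 ± 0.30, SE; edgeR adjusted p = 0.433).

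Of 8 genes for Hsp90 proteins and their partners, 2 rose and 0 fell, 25.0% past the threshold against 12.7% of all genes. The remaining 6 did not pass, and the list had a median log2 fold change of 0.05, against -0.01 over all genes. Fkbp5, an Hsp90-bound immunophilin and a known glucocorticoid target, rose 1.51-fold, with 48.7 ± 6.41 CPM in dehydrated and 32.2 ± 1.59 CPM in euhydrated libraries (edgeR adjusted p = 0.000253). Hsp90b1, the Hsp90 of the endoplasmic reticulum, rose 1.22-fold, with 799 ± 23.9 CPM in dehydrated and 654 ± 15.8 CPM in euhydrated libraries (edgeR adjusted p = 8.53e-06). Both held in 22 of 22 alternative fits. The cytosolic Hsp90 genes, Hsp90aa1 and Hsp90ab1, were named after their values were seen and did not pass. They stood at -0.01 ± 0.05 and 0.01 ± 0.03 on the log2 scale (SE; adjusted p = 0.944 and 0.888 by edgeR).

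**Figure D3:**
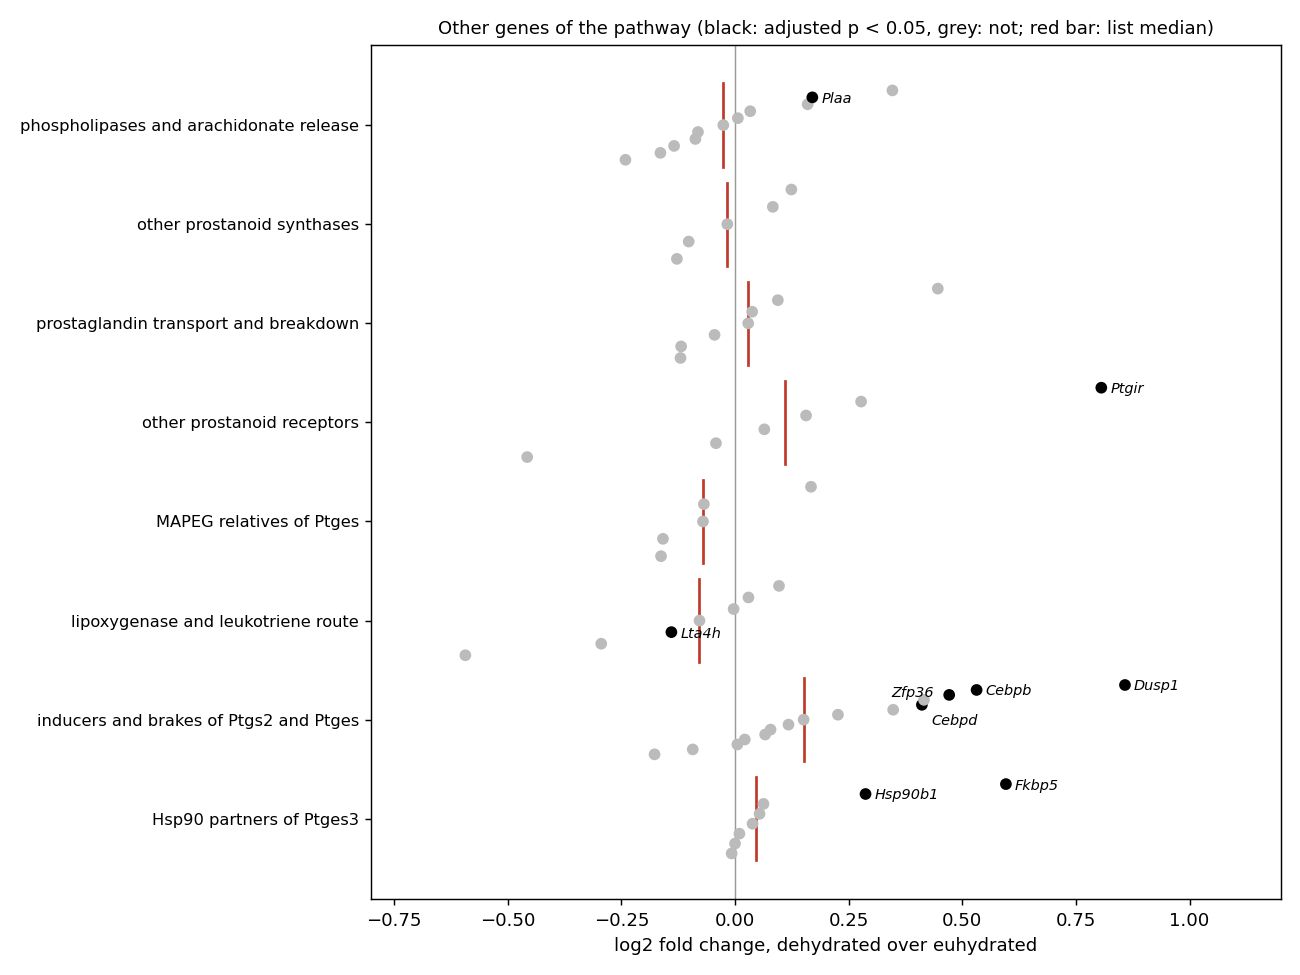
Log2 fold change, dehydrated over euhydrated (horizontal axis), of the 64 tested genes of the 8 pathway lists; each point is a gene, black where its adjusted p was under 0.05 and grey where not, and red bars are list medians. The 9 named genes include 8 to the right of 0, with Dusp1 and Ptgir furthest, and Lta4h to the left.

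Markers of other cell types in the punches were set beside these values. Perivascular macrophage markers, 4 of 4 tested and none at 0, summed to 52.4 to 68.9 CPM in dehydrated and 37.0 to 51.4 CPM in euhydrated libraries, without overlap. Of these 4 genes 2 rose. Cd163, a scavenger receptor, was at 10.3 ± 2.03 CPM in dehydrated and 4.55 ± 0.883 CPM in euhydrated libraries (2.25-fold, edgeR adjusted p = 0.00019), and Mrc1, the mannose receptor, was 1.33-fold higher (edgeR adjusted p = 0.00605). F13a1 and Lyve1 did not pass, at 0.21 and 0.06 on the log2 scale (adjusted p = 0.259 and 0.919 by edgeR).

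With the mean level of these 4 markers as a covariate, a choice made once the values had been looked at, Ptges had a log2 fold change of 2.03 ± 0.22 (SE), against 1.86 ± 0.14 without it. Ptger4 had 0.55 ± 0.21 (SE; edgeR adjusted p = 0.186), against 0.70 ± 0.14 without it, and lost its call. The covariate itself differed between the groups, and with it 579 genes passed in place of 1942. Within groups, deviations of Ptges from its means had a Pearson r of -0.26 with those of this marker mean, and Ptger4 one of 0.27 (10 libraries, a description).

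The summed levels of the remaining lists overlapped between the groups. Oligodendrocyte markers, 8 of 8 tested, summed to 9085 to 11639.6 CPM in dehydrated and 9448 to 13864 CPM in euhydrated libraries, and of these Opalin, for a myelin membrane protein, was 1.19-fold lower without overlap (edgeR adjusted p = 0.00105). Endothelial markers, 7 of 8 matched, with Slc2a1 past the threshold (1.23-fold higher), summed to 416 to 486 CPM in dehydrated and 409 to 431 CPM in euhydrated libraries. Microglial markers, 8 of 8 tested and none past the threshold, summed to 240 to 274 CPM in dehydrated and 255 to 295 CPM in euhydrated libraries. Erythrocyte markers, 5 of 5 tested with Slc4a1 lower, summed to 571 to 1388 CPM in dehydrated and 978 to 1954 CPM in euhydrated libraries. With the endothelial, microglial or erythrocyte level as a covariate, Ptger4 passed each time. Deviations of Ptges had an r of -0.50 with those of the erythrocyte markers (10 libraries, a description), and with that covariate its log2 fold change was 1.64 ± 0.18 (SE), the lowest of the 22 alternatives. The erythrocyte level itself shifted with the group, with medians of 1031 CPM in dehydrated and 1605 CPM in euhydrated libraries and overlapping ranges. With it as a covariate 682 genes passed in place of 1942. The correlations of Ptges next in size were 0.48 with magnocellular, -0.45 with oligodendrocyte and 0.39 with astrocyte markers, whose levels were not used as covariates. The part of any of these markers in the values of Ptges was not tested.

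**Figure D4:**
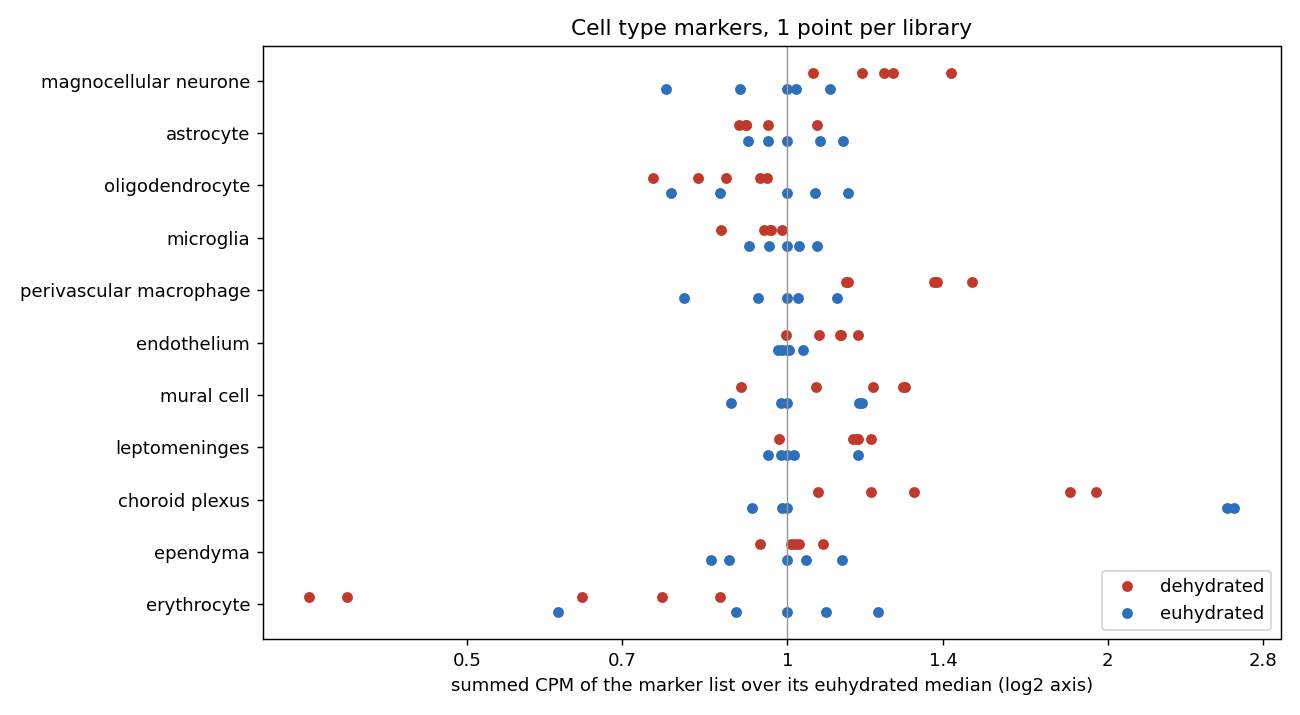
Summed CPM of each marker list in each library, over the euhydrated median of that list (log2 axis); red points above are dehydrated and blue points below are euhydrated libraries. Only the perivascular macrophage list has all 5 dehydrated libraries above all 5 euhydrated ones among these 11 lists.

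The genes whose levels varied most like Ptges within the groups were sought among 11611 genes with a symbol and a mean of at least 5 CPM. Likeness was the Pearson correlation over the 10 libraries of deviations in log2 CPM from the group means. The highest were those of Flot2 (r = 0.93), Ptprf (0.92), Abca8 (0.90), Nup93 (0.90) and Cox16 (0.88). By Spearman correlation the 5 values ran from 0.685 for Abca8 to 0.903 for Flot2. Of these 5 genes only Nup93, for a nuclear pore protein, also rose in dehydrated libraries (1.30-fold, edgeR adjusted p = 0.00174). Flot2 stood at -0.05 ± 0.04 on the log2 scale (SE; adjusted p = 0.385 by edgeR). These are the extremes of many correlations over few libraries.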

How the data were processed

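The authors deposited unnormalised whole counts for each Ensembl gene. The submitters' processing notes name STAR, featureCounts, FastQC, CASAVA and DESeq2 1.28.1. The sources used here name no build, annotation or strand setting, and reads of overlapping or antisense genes may be mixed. The authors also deposited a table with normalised counts (a signal), log2 fold changes, the Wald score and p-values, raw and adjusted, per the file headers; it supplied gene symbols, and 100% of its normalised values equalled the count over 1 size factor per sample, within 1% or 0.1.

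Columns were tied to samples by name. For 3 euhydrated columns the titles and descriptions number the samples differently, which ties them to their group but to no single sample; libraries carry their column's number. No library looked deposited more than once: within groups, paired counts gave a chi-square over its degrees of freedom of 4.86 to 12.1.

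Groups were compared with edgeR 4.0.16 (filterByExpr, TMM, robust glmQLFit and glmQLFTest) in R 4.3.3 over 15311 genes, with Benjamini-Hochberg adjustment and a threshold of 0.05; log2 CPM used a prior count of 2. Standard errors are the log2 fold change over the root of F. Alternatives used DESeq2 1.42.0 and limma 3.58.1, other scalings, filters and covariates. The members and all lists were chosen with earlier results of these data known. Named genes are the members, every list gene past the threshold or, where none passed, the 2 most abundant, and the 5 genes most like Ptges. Symbols not found were sought by NCBI gene number; Ptgdr was matched under the name Ptgdrl, and Ptgis was not analysed here. RefSeq promoter sequences (GRCr8) were matched by symbol for 9 of the 10 members.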

Additional observations from a re-analysis of the deposited data

Results flagged for a closer look

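Among 60 sets of 5 libraries examined for a value far from the others, 2 held one, and chance gives about 1 in 20. Ptgr2 was at 71.5 CPM in dehydrated library 2, against 77.6 to 79.9 CPM in the other dehydrated libraries. Fkbp5 was at 29.4 CPM in euhydrated library 5, against 32.6 to 33.1 CPM in the other euhydrated libraries.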

How the results depend on the processing

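Across 22 alternatives, Ptges kept a log2 fold change of 1.64 to 2.03. Over all genes 1942 passed; 960 passed with the leptomeningeal, 836 with the endothelial, 1236 with the microglial, 682 with the erythrocyte and 579 with the perivascular macrophage marker level as a covariate, and 1494 to 1756 without 1 library. Scaling to library totals gave 904 higher and 1173 lower genes, against 1192 and 750, and moved the median log2 fold change from -0.01 to -0.03. Of the members other than Ptges 3 passed; 1 passed with the leptomeningeal, endothelial or erythrocyte covariate, 0 with the macrophage covariate, and 1 to 3 without 1 library (1 without dehydrated 3 or 4 or euhydrated 3 or 4). Of the pathway genes 9 passed, with 4 under the endothelial, 3 under the erythrocyte and 3 under the macrophage covariate, and 5 to 7 without 1 library (5 without euhydrated 1, 3 or 4). The cause was not tested. Beside that count of 0 in edgeR, 2 of the 9 had an unadjusted p under 0.05. Signs turned only for genes that did not pass: Ptgs1 had -0.0097 with library totals, -0.062 with the erythrocyte covariate and -0.0174 to 0.0582 without 1 library (lowest without dehydrated 5), Ptgs2 had -0.013 with the microglial covariate, and Slco3a1 had 0.047 and 0.026 with the leptomeningeal and endothelial covariates. The replicate block used the numbers in the column names, which the labels do not tie to shared animals; deviations of same-numbered libraries correlated at -0.0682 to 0.141. With the block 1956 genes, 2 of the other members and 6 pathway genes passed. DESeq2 gave 2247, 3 and 11. Depth limits Ptger1, Ptger3, Hpgd and Ptgir, all near 1 CPM or below.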
